A study of Mus musculus with 2 samples.

Results

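The BCL2 family decides whether mitochondria release the proteins that start apoptosis. The levels of 10 of its genes were measured in G1E cells, among 43346 annotated genes in all. The members were Bcl2, Bcl2l1, Mcl1, Bax, Bak1, Bcl2l11, Bbc3, Pmaip1, Bad and Bid. They were chosen by name, through the gene identifiers of GENCODE release M21, and not by a rule on their values. Earlier results of these data were known when they were chosen. All 10 had a row in both libraries, and no filter on low values was applied to them. G1E is an immortalized mouse erythroid progenitor line, labelled Gata1-, and GATA1 is the factor that drives red cell maturation. The labels give the line as male and postnatal, with an age of 0 day. PolyA RNA was read single-end in 2 libraries. They are labelled biological replicates 1 and 2, cite a single biosample and form 1 group with no second condition. Whether the libraries came from separate cultures is not given in the sources used here, so their spread may be technical, and no p-value was computed.

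Family members carry short BH domains through which they bind each other. The pro-survival proteins BCL2, BCL-XL (from Bcl2l1) and MCL1 hold back the effectors BAX and BAK (from Bak1), which otherwise open the outer mitochondrial membrane. BH3-only proteins, here BIM (from Bcl2l11), PUMA (from Bbc3), NOXA (from Pmaip1), BAD and BID, relieve that restraint or activate the effectors through their BH3 helix. In erythroid progenitors, erythropoietin signalling through STAT5 is known to raise Bcl2l1, and MCL1 is needed for the survival of early blood progenitors.

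The BH3 core is a stretch of sequence that the members have in common, so it is shown for 9 of them. It occurs in pro-survival, effector and BH3-only genes alike and does not set these roles apart. Capitals mark the 6 codons of the core, for leucine, 2 of any kind, 1 for isoleucine, methionine, alanine or valine, 1 for glycine, alanine or serine, and aspartate. The lower-case letters are the 4 codons on either side. All lie in coding exons of GENCODE M21 transcripts on GRCm38, and each is written 5′ to 3′ on the gene's own strand.
Bcl2, chr1:106712572-106712613, minus strand: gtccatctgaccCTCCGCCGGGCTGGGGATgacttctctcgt
Bcl2l1, chr2:152829694-152829735, minus strand: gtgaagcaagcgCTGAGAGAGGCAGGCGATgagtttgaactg
Mcl1, chr3:95659424-95659465, plus strand: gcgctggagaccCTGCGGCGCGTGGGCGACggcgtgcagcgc
Bax, chr7:45465994-45466035, minus strand: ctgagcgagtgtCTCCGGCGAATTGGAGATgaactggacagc
Bak1, chr17:27022528-27022569, minus strand: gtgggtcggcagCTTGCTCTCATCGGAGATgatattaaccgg
Bcl2l11, chr2:128147138-128147179, plus strand: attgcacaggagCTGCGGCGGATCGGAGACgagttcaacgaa
Bbc3, chr7:16313761-16313802, plus strand: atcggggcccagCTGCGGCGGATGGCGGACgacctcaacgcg
Bad, chr19:6950780-6950821, plus strand: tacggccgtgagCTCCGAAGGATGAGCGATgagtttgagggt
Bid, chr6:120897286-120897327, minus strand: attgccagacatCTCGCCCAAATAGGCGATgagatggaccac

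Each of these 9 coding sequences held exactly 1 match to the core, and the coding sequence of Pmaip1, not shown, held 2. The pattern is loose, since 9.0% of protein-coding genes (1932 of 21462) also held a match in their longest coding sequence. Of the 18 core bases, 4 were the same in all 9 members. All 4 lay in the leucine and aspartate codons that the pattern requires, so they largely restate the pattern. Bcl2l11 and Bbc3 were the most alike pair, with 15 of 18 bases identical, and Bcl2l1 and Bak1 the least alike, with 7. At the level of DNA the core is therefore varied, and few 36-base words on the transcript strand are shared between genes. Of the 36-base words in a member's transcripts, at most 0.374% occur on that strand in another gene for every member except Bax. For Bax the share was 10.3%, mostly through the predicted gene Gm45808 (9.50%), so part of its reads are uncertain. Genes on the opposite strand were not covered by this count. On chromosome 6, Bid (minus strand, from 120891930) overlaps the expressed Bcl2l13 (plus strand, up to 120892842). With the strand setting not given, part of the Bid reads may be uncertain too.

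Total counts on genes were 31633573 in replicate 1 and 56978193 in replicate 2. The effective lengths in the tables imply reads of 36 and 55 nt. Protein-coding genes held 84.4% and 75.1% of the TPM, which lowers the TPM of a given gene in replicate 2. Erythroid progenitor markers were all present (7 of 7 with at least 1 TPM in each library, summing to 2041 and 1339 TPM). None of the 4 lymphoid, 5 granulocyte and macrophage, 3 endothelial and 3 fibroblast markers reached 1 TPM in both libraries. Their sums were 2.81 and 0.18 TPM, 0.89 and 1.46 TPM, 1.33 and 0.43 TPM, and 1.12 and 0.03 TPM in that order, and the granulocyte gene Elane was at 0 in both. Some reached 1 TPM in a single library (named after their values were seen). These were the lymphoid Cd3e (1.68 TPM) and endothelial Pecam1 (1.14 TPM) in replicate 1, and the macrophage gene Adgre1 (1.18 TPM) in replicate 2. Gata1 RNA, despite the label Gata1-, was at 88.2 and 61.4 TPM (3748 and 5037 expected counts). The labels do not give the part of the gene that was disrupted, so this level, summed over the whole gene, cannot check the label beyond showing that Gata1 RNA was present.

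Levels are given in TPM, reads per effective length as a share of 1 fixed library total. A gene counts as expressed if both libraries gave it 1 TPM or more. Of the 10 members, 9 were expressed, against 42.5% of all protein-coding genes (9118 of 21474). The median member stood at 39.8 TPM (mean of both libraries), beside 0.365 TPM over all protein-coding genes and 23.5 TPM over those expressed. The effectors stood at the top of the family and Bcl2 and Pmaip1 at its foot.

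**Figure D1:**
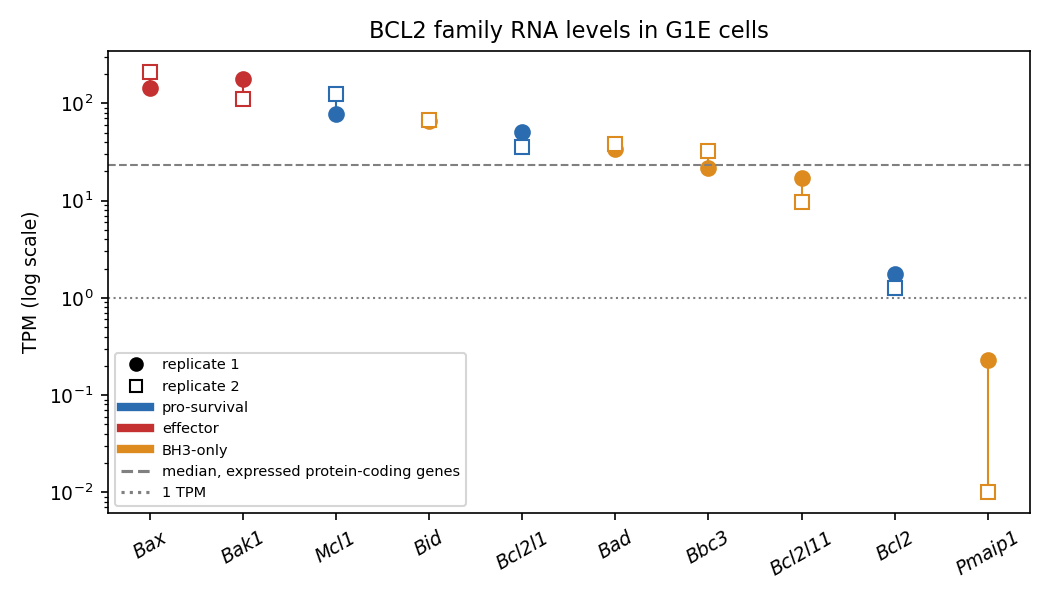
TPM of the 10 BCL2 family genes in G1E cells on a log axis, with filled circles for replicate 1, open squares for replicate 2 and colours for the role. Bax and Bak1 lie above 100 TPM in both libraries, Bcl2 lies just above the dotted line at 1 TPM, and Pmaip1 lies below it; the dashed line is the median of expressed protein-coding genes.

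Among the pro-survival genes, most of the RNA came from Mcl1. Mcl1 (ENSMUSG00000038612.12, chromosome 3 from 95658788 to 95663176, plus strand, GRCm38) encodes a short-lived protein that is lost quickly when synthesis stops. It measured 78.3 TPM in replicate 1 and 125 TPM in replicate 2, a mean of 102 ± 33.2 TPM (SD, n = 2), from 2600 and 12844 expected counts. Bcl2l1 (ENSMUSG00000007659.14, chromosome 2 from 152780668 to 152831728, minus strand) measured 50.9 and 35.7 TPM, a mean of 43.3 ± 10.7 TPM (SD, n = 2), from 1786 and 3167 expected counts. Bcl2 (ENSMUSG00000057329.7, chromosome 1 from 106538178 to 106714274, minus strand), the founding member of the family, measured 1.74 and 1.27 TPM, a mean of 1.5 ± 0.33 TPM (SD, n = 2), from 208 and 326 expected counts. The order Mcl1, Bcl2l1, Bcl2 was the same in both libraries, and their levels did not overlap.

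Mcl1 held 59.8% of the pro-survival TPM in replicate 1 and 77.2% in replicate 2, Bcl2l1 held 38.9% and 22.0%, and Bcl2 held 1.33% and 0.78%. Mcl1 exceeded Bcl2l1 by 0.61 on the log2(TPM + 1) scale in replicate 1 and by 1.78 in replicate 2, a mean of 1.20 ± 0.83 (SD, n = 2). That mean lay just inside 1.23, the 95% bound for a mean pair difference, which comes from a between-library SD of 0.63 pooled across 10469 genes. At that bound the order of Mcl1 and Bcl2l1 was thus not separated from the spread between libraries, although it was the same in both. The margin was narrow and depended on the setting. With a robust SD (from median deviations) the bound was 0.98, and without the filter on low values it was 0.895. The mean of 1.20 lay beyond both.

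The effectors Bax and Bak1 were the highest 2 genes of the family by mean TPM, and which of them led depended on the library. Bax (ENSMUSG00000003873.10, chromosome 7 from 45461697 to 45466898, minus strand), a mainly cytosolic protein that moves to mitochondria, measured 143 and 211 TPM, a mean of 177 ± 48.6 TPM (SD, n = 2). Bak1 (ENSMUSG00000057789.9, chromosome 17 from 27019810 to 27029009, minus strand), whose protein sits in the mitochondrial outer membrane, measured 177 and 110 TPM, a mean of 144 ± 47.6 TPM (SD, n = 2). Bax lay below Bak1 by 0.31 on the log2 scale in replicate 1 and above it by 0.94 in replicate 2. Both genes lay above 94.8% of protein-coding genes or more in each library. On TPM as deposited their sum was almost the same in the libraries, at 320 and 321 TPM, while Bax made up 44.6% of it in replicate 1 and 65.8% in replicate 2. With TPM rescaled over protein-coding genes, Bax measured 169 and 281 TPM and Bak1 210 and 147 TPM. On that scale the sum was larger in replicate 2. The protein-coding genes nearest to Bax in level were Arpc4, a subunit of the actin-nucleating ARP2/3 complex (141 and 214 TPM), and Ccnb1, the mitotic cyclin B1 (148 and 203 TPM).

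Of the BH3-only genes, 4 of 5 were expressed. Of these 4, Bid and Bad had the smallest log2 ratios of TPM between the libraries, although on scaled counts that of Bcl2l11 was smaller (-0.24, against -0.35 for Bid and -0.51 for Bad). Bid (ENSMUSG00000004446.8, chromosome 6 from 120891930 to 120916853, minus strand), whose protein is cut by caspase-8 to reach mitochondria, measured 65.5 and 67.5 TPM, a mean of 66.5 ± 1.39 TPM (SD, n = 2). Bad (ENSMUSG00000024959.9, chromosome 19 from 6941861 to 6951899, plus strand), which growth-factor kinases hold inactive by phosphorylation, measured 33.9 and 38.6 TPM, a mean of 36.3 ± 3.32 TPM (SD, n = 2). As background, the proteins BID and BAD are known for control after translation. The other 3 genes are known for control of their transcription, although BIM is also controlled by phosphorylation. Whether this bears on the ratios between the libraries was not tested.

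Bbc3 (ENSMUSG00000002083.8, chromosome 7 from 16308393 to 16318205, plus strand), a p53 target, measured 21.6 and 32.5 TPM, a mean of 27.1 ± 7.70 TPM (SD, n = 2). Bcl2l11 (ENSMUSG00000027381.12, chromosome 2 from 128126038 to 128162547, plus strand), a FOXO3 target that rises on loss of growth factor, measured 17.2 and 9.57 TPM, a mean of 13.4 ± 5.43 TPM (SD, n = 2). Bbc3 exceeded Bcl2l11 by 0.99 ± 0.96 on the log2 scale (SD, n = 2), inside the bound of 1.23. Pmaip1 (ENSMUSG00000024521.7, chromosome 18 from 66458533 to 66465565, plus strand), whose protein binds MCL1, was at 0.23 TPM (14 counts) in replicate 1 and at 0.01 TPM (1 count) in replicate 2. The limit that a count of 0 allows, 3 counts, is 0.05 and 0.03 TPM for this gene, so Pmaip1 was below it in replicate 2. Protein-coding genes with no count in replicate 2 (7728 genes) had a median of 0.04 TPM and a 95th percentile of 0.53 TPM in replicate 1. The Pmaip1 level of replicate 1 lay between these values. A low level in all cells and a higher one in few cells cannot be told apart in RNA from whole cultures, for Pmaip1 as for the other members.

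Across all 45 member pairs, 32 were further apart than the bound of 1.23 on the log2(TPM + 1) scale, and 42 had the same order in both libraries. The 3 pairs whose order turned were Bax and Bak1 (-0.31 and 0.94), Bak1 and Mcl1 (1.17 and -0.19), and Bcl2l1 and Bad (0.57 and -0.11). Ranked by mean TPM, the order was Bax, Bak1, Mcl1, Bid, Bcl2l1, Bad, Bbc3, Bcl2l11, Bcl2 and Pmaip1. Of the 9 neighbouring pairs in that order, only Bcl2l11 and Bcl2 were separated beyond the bound, by 2.48 ± 0.37 (SD, n = 2). That count depended on the settings. Bcl2 and Pmaip1, 1.16 apart here, lay beyond the bound when 0.1 was added to TPM in place of 1. With the robust SD the bound was 0.98, and Bcl2 and Pmaip1 as well as Bbc3 and Bcl2l11 (0.99) passed it. At the bound of 1.23 the family thus graded from Bax to Bcl2l11 in steps that lay inside the bound, with a gap above Bcl2. The protein-coding genes nearest to Bcl2 were Tcn2, the vitamin B12 carrier transcobalamin (1.70 and 1.30 TPM), and the zinc finger gene Zfp422 (1.73 and 1.21 TPM).

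Summed by role, effector RNA exceeded pro-survival RNA in both libraries, and BH3-only RNA was close to pro-survival RNA. Effector genes summed to 321 ± 0.98 TPM, BH3-only genes to 143 ± 6.82 TPM (138.5 and 148 TPM by library) and pro-survival genes to 147 ± 22.2 TPM (131 and 162 TPM by library; SD, n = 2 for each sum). Effector over pro-survival TPM was 2.44-fold in replicate 1 and 1.98-fold in replicate 2, a mean log2 ratio of 1.14 ± 0.21 (SD, n = 2). BH3-only over pro-survival TPM was 1.06-fold and 0.913-fold, a mean log2 ratio of -0.03 ± 0.15 (SD, n = 2), so its direction turned between the libraries. These ratios concern RNA, and protein levels were not measured here.

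**Figure D2:**
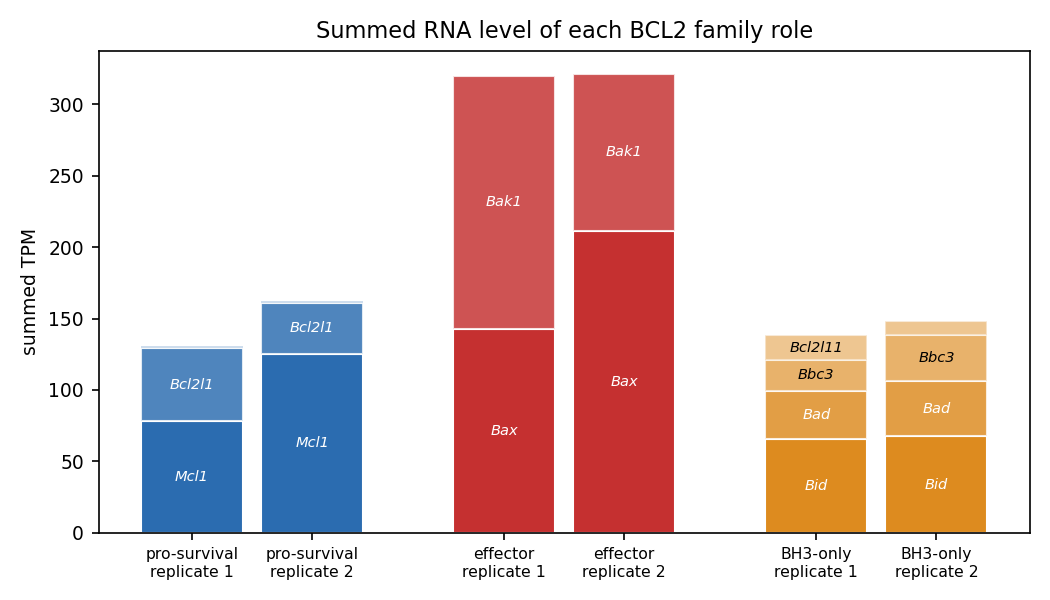
Summed TPM of the pro-survival, effector and BH3-only genes in each library, with each bar divided by gene from an axis starting at 0. The effector bars reach 320 and 321 TPM with opposite shares of Bax and Bak1, and the other bars lie between 131 and 162 TPM.

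The effector sum rests in part on a Bak1 transcript that the annotation does not treat as coding for full-length BAK. Bak1-201, annotated as a target of nonsense-mediated decay with an open frame of 151 codons, took 95.8% and 96.1% of Bak1 TPM (170 and 106 TPM). Bak1-202, with the full frame of 209 codons, took 4.18% and 3.54% (7.42 and 3.90 TPM). Bak1-201 holds an exon of 20 bases that Bak1-202 lacks. The exon is shown because it marks the form to which most Bak1 reads were assigned. In the spliced transcript on the minus strand, capitals mark the exon, chr17:27021663-27021682 of GRCm38, and lower-case letters mark 15 bases of the exon on either side.
Bak1-201 exon: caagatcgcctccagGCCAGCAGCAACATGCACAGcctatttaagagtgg

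A 20-base exon of Bak1 is known as background from mouse neurons, where its inclusion gives the form called N-Bak. The transcripts differ elsewhere too: Bak1-202 has 431 bases of first exon that Bak1-201 lacks. The deposited tables do not give reads over the exon or over the first exon, so which of these places decided the assignment was not tested. When Bak1 was counted by Bak1-202 alone, a choice made after seeing the data, effector over pro-survival TPM was 1.15-fold in replicate 1 and 1.33-fold in replicate 2, a log2 ratio of 0.30 ± 0.15 (SD, n = 2). That choice changes Bak1 alone. With only transcripts annotated as protein-coding counted for every member, also chosen after seeing the data, the ratio was 1.503-fold in replicate 1 and 1.40-fold in replicate 2, a log2 ratio of 0.54 ± 0.07 (SD, n = 2).

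Of the 10 members, 8 have more than 1 transcript in the tables, and the transcript with the largest share was not the same in both libraries for 3 of them, Mcl1, Bcl2l1 and Bcl2l11. The same held for 32.9% of the 8081 genes with several transcripts, so this count does not set the members apart. In those 3 members the leading transcript of replicate 1 was the shorter one, as in 70.3% of all genes whose leading transcript differed (1872 of 2662). Bax and Pmaip1 have 1 transcript each.

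**Figure D3:**
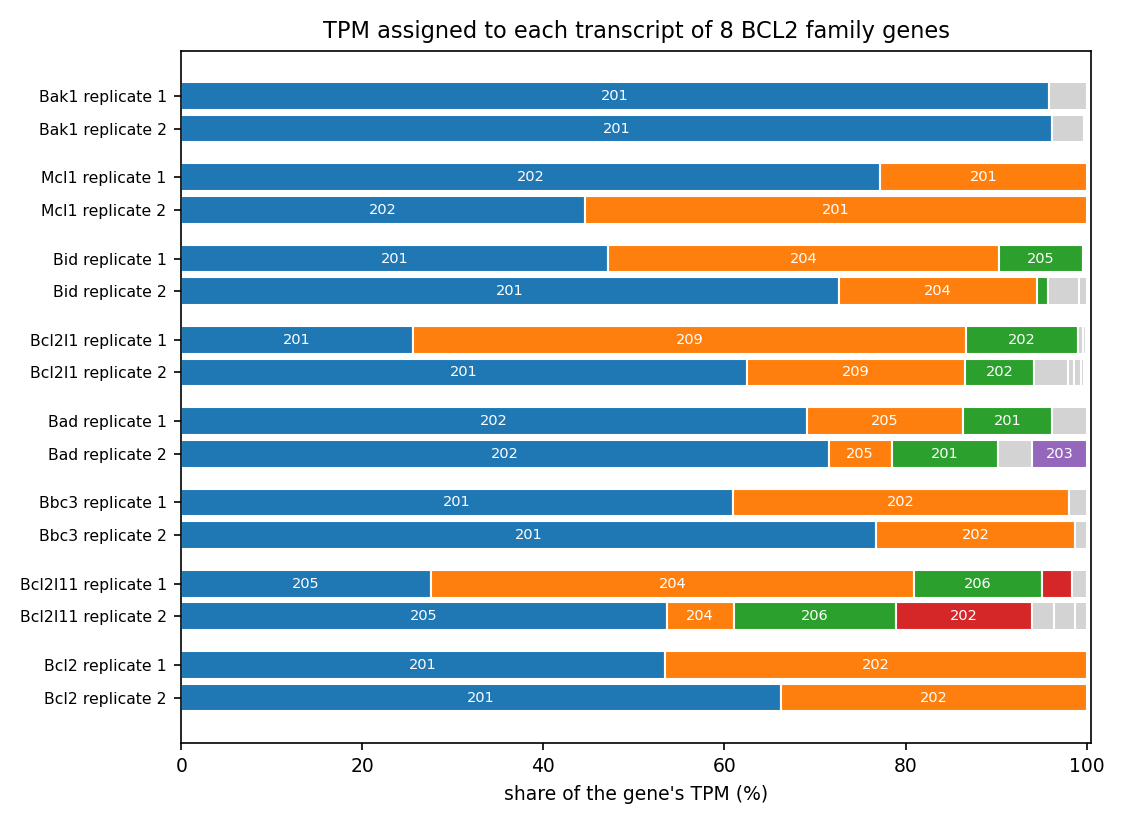
Deposited share of gene TPM held by every transcript, in percent, for the 8 members with several transcripts, with replicate 1 above replicate 2. Numbers in the bars are transcript numbers and grey pieces are transcripts under 5% in both libraries; Bak1 is alike in both, while Mcl1, Bcl2l1 and Bcl2l11 change their largest piece.

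For Mcl1, the short transcript Mcl1-202 of 858 nt took 77.2% in replicate 1 and 44.6% in replicate 2. The long transcript Mcl1-201 of 3485 nt, with the full frame of 331 codons, took 22.8% and 55.4%. In TPM, Mcl1-202 was nearly level at 60.5 and 55.8, while Mcl1-201 stood at 17.8 and 69.5. As assigned, the difference in Mcl1 TPM between the libraries thus lay in its long transcript. Mcl1-202 has a frame of 285 codons and no base of its own: it lacks 2353 bases after its end and 138 coding bases, or 46 codons, near the start of Mcl1-201. Those coding bases are shown because they are what separates the proteins of the transcripts, at chr3:95658909-95659046 of GRCm38, plus strand, all in capitals because all are absent from Mcl1-202.
Mcl1-201 coding bases: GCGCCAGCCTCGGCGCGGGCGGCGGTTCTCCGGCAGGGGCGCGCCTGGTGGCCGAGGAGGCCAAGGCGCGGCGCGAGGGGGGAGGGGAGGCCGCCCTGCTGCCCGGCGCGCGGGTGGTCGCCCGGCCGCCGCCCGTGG

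For Bcl2l1, the noncoding transcript Bcl2l1-209 of 961 nt took 61.1% in replicate 1 and 24.2% in replicate 2. It shares 872 of its bases with Bcl2l1-201, and none of its bases is absent from all other Bcl2l1 transcripts. Bcl2l1-201 and Bcl2l1-202, which both hold the frame of 233 codons of BCL-XL, took 25.6% and 62.4%, and 12.3% and 7.56%. Together the BCL-XL transcripts made up 19.28 and 25.01 TPM, so they were lower in replicate 1 while the whole gene was higher there.

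For Bcl2l11, several transcripts correspond to known forms of BIM, of which BimS is known as the most potent killer. Bcl2l11-204, with 110 codons (BimS), took 53.4% in replicate 1 and 7.41% in replicate 2. Bcl2l11-205, with 196 codons (BimEL, the form that ERK phosphorylation marks for degradation), took 27.6% and 53.6%. In TPM, BimEL was alike at 4.76 and 5.13, and BimS stood at 9.21 and 0.71. The BimS reading came from 137 and 19.9 expected counts, and all 672 of its bases also lie in Bcl2l11-205. The form of 140 codons (BimL) was at 0 and 0.22 TPM. Bcl2l11-202, of 91 codons and without a match to the BH3 core, took 3.22% and 14.99%, and the noncoding Bcl2l11-206 took 14.2% and 17.97%.

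Bak1 and the other 4 members with several transcripts kept their leading transcript. Bid-201 led at 47.2% and 72.7%, ahead of Bid-204 at 43.1% and 21.9%. Both hold the same 195 codons, but Bid-204 is annotated as a target of nonsense-mediated decay, and a retained-intron form, Bid-205, took 9.34% and 1.20%. Bad-202, of 162 codons, led at 69.1% and 71.5%. Bad-201, with 204 codons, took 9.88% and 11.8%, the incomplete Bad-205 took 17.2% and 6.93%, and Bad-203 took 0% and 5.99%. Bbc3-201, with the 193 codons of PUMA, led at 61.0% and 76.8%, and the incomplete Bbc3-202 of 485 nt, which holds no match to the BH3 core, took 37.1% and 22.0%. Bcl2-201, with the full 236 codons, led at 53.4% and 66.2%, and the rest went to Bcl2-202 of 199 codons.

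Weighted by these shares, transcripts of members were mostly shorter in replicate 1. The abundance-weighted length was lower in replicate 1 for 7 of the 8 members with several transcripts, beside 58.8% of all such genes, and lower by at least 1.5-fold for 2 members, beside 9.24%. Those 2 were Bcl2l11 (1966 and 3381 nt) and Mcl1 (1457 and 2314 nt). The implied read lengths, 36 and 55 nt, moved with these shares, and their part in the result was not tested.

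The libraries were also compared on counts, which are not divided by length. On counts scaled by the TMM library sizes, 2 of the 9 members with at least 50 counts in total were 2-fold or more apart, both higher in replicate 2, beside 32.5% of all genes (10.2% higher in replicate 1 and 22.3% higher in replicate 2). They were Mcl1, with a log2 ratio of -1.65 (replicate 1 over replicate 2), and Bbc3, with -1.09. The median log2 ratio of all genes on this scale was -0.28. In TPM the ratios were -0.68 for Mcl1 and -0.59 for Bbc3, and 0 members were 2-fold or more apart, beside 29.5% of genes. Both shares of members lay under those of all genes, so neither count sets the members apart.

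The direction itself turned with the scale for Bcl2l11 and Bcl2l1. On scaled counts Bcl2l11 had a log2 ratio of -0.24 and Bcl2l1 of -0.17, and in TPM they had 0.85 and 0.51. Both lay above the median of all genes on scaled counts. With counts scaled by library totals alone they had -0.04 and 0.02, and with TPM rescaled over protein-coding genes 0.68 and 0.34. When each gene was given the same length in both libraries, a choice made after seeing the data, Bcl2l11 measured 12.9 and 12.8 TPM and Bcl2l1 44.9 and 42.6 TPM. Mcl1 moved the other way under that choice, to 61.4 and 162 TPM. Bax, with 1 transcript, had -0.84 on scaled counts and -0.57 in TPM, and Bak1 had 0.40 and 0.69, so their opposite directions held on both scales. Bid had -0.35 and -0.04, and Bad -0.51 and -0.19. Bcl2 was level on scaled counts, at 0.00, and at 0.45 in TPM.

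**Figure D4:**
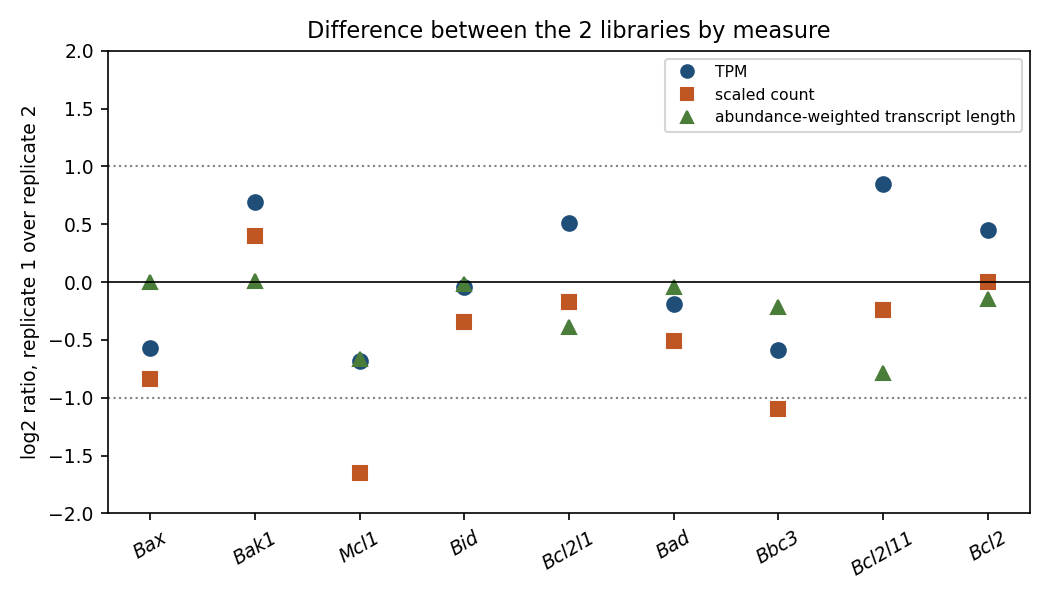
Log2 ratio of replicate 1 over replicate 2 for the 9 members with at least 50 counts, as TPM (circles), scaled counts (squares) and abundance-weighted transcript length (triangles), with dotted lines at 2-fold. Mcl1 and Bbc3 pass the lower line on scaled counts, no circle passes either line, and the circles of Bcl2l11 and Bcl2l1 lie above 0 while their squares lie below it.

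Of 15 other BCL2 family genes, 5 were expressed, beside 42.5% of protein-coding genes, and their list median was 0.20 TPM. The highest were Bnip3l, a mitophagy receptor of maturing red cells (324 and 589 TPM), Bnip3, its hypoxia-induced relative (126 and 159 TPM), Bcl2l12 (49.1 and 21.1 TPM) and Bcl2l13 (29.2 and 28.7 TPM). Of their 36-base words, 22.9% of Bnip3l also occur in its pseudogene Bnip3l-ps and 16.6% of Bnip3 in Gm16439, so part of these reads are uncertain. These 4 are not usually counted among the classical pro-survival, effector or BH3-only genes. Bcl2a1a, Bcl2a1b, Bcl2a1d, Bcl2l10, Bok, Bik, Bmf, Bcl2l14 and Bcl2l15 were under 1 TPM in both libraries. The Bcl2a1 genes share most of their sequence with each other, so their reads could not be told apart with certainty. The fifth expressed gene was the pro-survival Bcl2l2, at 9.71 and 8.51 TPM, with 12.6% of its 36-base words in other genes. The BH3-only gene Hrk was at 1.62 TPM in replicate 1 and 0 in replicate 2 (both named after their values were seen). Among pro-survival genes Bcl2l2 thus stood below Mcl1 and Bcl2l1 and above Bcl2 in both libraries.

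The machinery on which the family acts was present. All 14 genes of the mitochondrial death pathway were expressed, with a median of 35.4 TPM. Among the highest were the outer-membrane channels Vdac2, which is known to hold BAK (265 and 345 TPM), and Vdac1 (169 and 162 TPM), and the protease Htra2 (94.9 and 75.2 TPM). Of 12 upstream regulators, 10 were expressed, beside the same 42.5%, and the list median was 67.9 TPM. They were led by Myc (531 and 281 TPM), Trp53, which encodes p53 (460 and 296 TPM), Stat5a (188 and 145 TPM) and the stem cell factor receptor Kit (191 and 140 TPM), while Trp73 and Foxo1 were under 1 TPM in both libraries. Gata1, with the values given above, and Foxo3 (68.7 and 25.8 TPM) were among the 10 (both named after their values were seen). Whether Foxo3 bears on the Bcl2l11 level was not tested. The p53 targets Bbc3 and Pmaip1 stood far apart in level in these cells. Activity of the p53 protein was not measured, so Trp53 RNA does not tell how far either gene was driven by it.

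Of 13 genes that modify the members' proteins or set their stability, 12 were expressed, beside 42.5% of all protein-coding genes. The list median was 23.6 TPM, beside 23.5 TPM over expressed protein-coding genes. The highest were Akt1, whose kinase phosphorylates BAD (367 and 282 TPM), Huwe1, a ubiquitin ligase of MCL1 (239 and 164 TPM), Ywhaz, a 14-3-3 protein of the family that binds phosphorylated BAD (179 and 159 TPM), and the kinase gene Pim1 (87.6 and 111 TPM). The thirteenth was Casp8, whose protein cuts BID, at 0.98 TPM in replicate 1, under the threshold, and at 2.72 TPM in replicate 2 (named after its values were seen). Bid RNA, at 65.5 and 67.5 TPM, was thus above Casp8 RNA in both libraries.

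**Figure D5:**
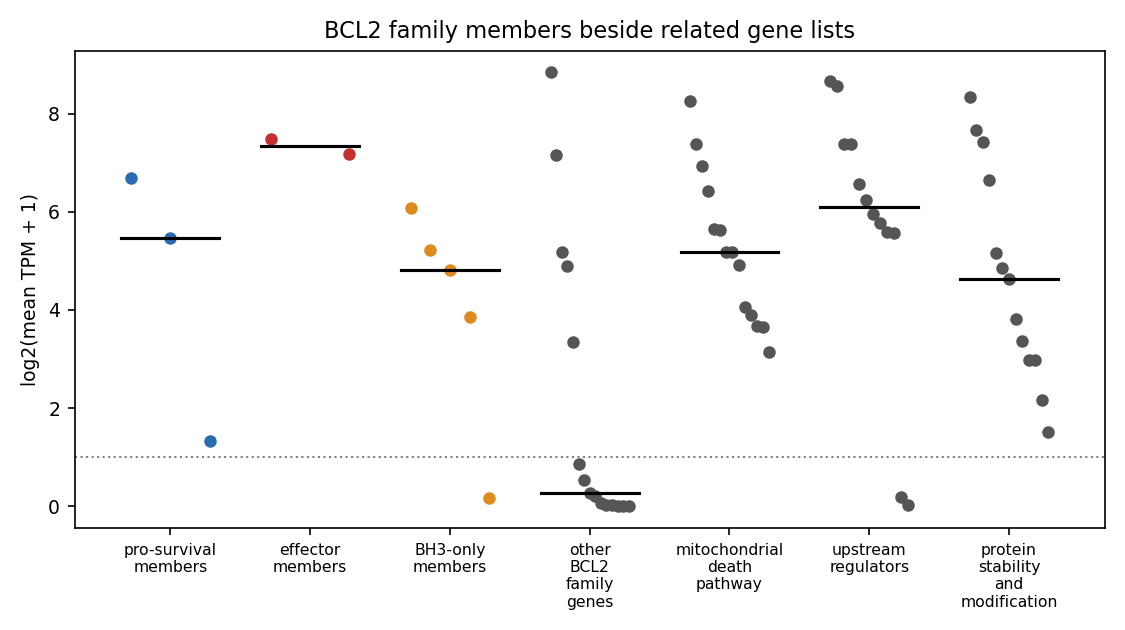
Log2(mean TPM + 1) of every gene in the 3 role groups of the members (coloured) and in 4 related gene lists (grey), with a bar at each median and a dotted line at 1 TPM. The other BCL2 family genes fall mostly below the line, while all 14 genes of the mitochondrial death pathway lie above it.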

How the data were processed

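PolyA RNA of G1E cells was measured in 2 libraries of 1 group, grouped by the line named in the labels. Per the notes deposited with the files, tables were made on mm10 with annotation M4 from transcriptome alignments, each library separately. Names and versions of the aligner and quantifier, and the strand setting, were not given in the sources used here. Overlapping antisense genes may therefore share reads. Expected counts were deposited without normalisation and were rounded to whole numbers before scaling. TPM values were deposited per effective length and scaled to one total over all entries of a table, with a posterior mean beside each that served as an alternative. The deposited percent columns give each transcript's share of its gene's TPM. The deposited signal columns give bounds of a credibility interval of TPM, whose level is not stated, and were used for no result. Lengths, another deposited column, were used as given.

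Names, positions and sequences came from GENCODE M21 on GRCm38, matched on identifiers without version: 42462 of 43346 genes matched. The 26345 entries that name no gene held 0.0363% and 0.00942% of counts and were left out of library sizes. Of the members' 40 transcripts, 39 were in M21 and 34 had the same length there. Members and gene lists were chosen with earlier results of these data known. The genes named are all 10 members, the 4 highest of each list and those under 1 TPM in both libraries, transcripts at 5% or more in either library, and the 2 genes nearest in level to the highest and to the lowest expressed member. One gene that this rule names is not reported here.

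Pair differences used log2(TPM + 1), which understates differences of low genes. Their bound is 1.96 times the pooled SD between libraries over the square root of 2 libraries, times the square root of 2 for a difference. Counts were scaled by TMM in edgeR 4.0.16 (R 4.3.3; factors 1.07 and 0.934), with 0.5 added, and compared at 2-fold among genes with at least 50 counts. DESeq2 1.42.0 supplied alternative size factors. The scaling step was tested on simulated counts. Other steps used Python 3.11.15, pandas 2.3.3 and numpy 2.4.6. Shared 36-base words were counted on the transcript strand alone, for BCL2 family genes and not for the other lists. A floor of 3 counts covers counting error only. Alternatives covered the scaling, the TPM estimate, thresholds, filters and leaving out each library.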

Additional observations from a re-analysis of the deposited data

How the results depend on the processing

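Of 69 alternatives over the counts, sums and ratios reported, 60 left the result within its spread between libraries or within 1.5 times a count and 9 moved it. Some of the 60 were fixed in advance. With 2 libraries, leaving out either one cannot move a sum or ratio by more than its SD. Rescaling over protein-coding genes cannot change a ratio within a library. These alternatives therefore do not test how stable the sums and ratios are. None turned the direction of a value larger than its SD. BH3-only over pro-survival, whose value is smaller than its SD, changed sign without replicate 2. TPM rescaled over protein-coding genes moved the effector sum to 404 TPM, the BH3-only sum to 181 TPM and the pro-survival sum to 186 TPM, and left both ratios between roles as they were. The effector sum, whose spread was small on deposited TPM, was 309 TPM by the posterior mean and 332 TPM with the same gene length in both libraries. Effector over pro-survival TPM was 0.30 on the log2 scale with Bak1 counted by the transcript without the 20-base exon, and 0.54 with protein-coding transcripts alone for all members. Members 2-fold apart between the libraries were 0 by the ratio of TPM and 1 with library totals alone. Rescaling over protein-coding genes raises the TPM of every member by construction. The causes of the other moves were not tested.

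With either library left out, 9 members were expressed. Pro-survival sums then ranged from 131 to 162 TPM, effector sums from 320 to 321 TPM and BH3-only sums from 138.5 to 148 TPM. Effector over pro-survival ranged from 0.99 to 1.29, BH3-only over pro-survival from -0.13 to 0.08 on the log2 scale, and pairs beyond the bound from 26 to 27. No such value exists for results that compare the libraries. No paired analysis was possible because there was 1 group. Few counts limit Pmaip1 (14 and 1), and shares of transcripts that have all their bases in common with others rest on the assignment of shared reads.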
